A study of Mus musculus with 12 samples.

Results

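The comparison described here is between gastruloids embedded early and gastruloids embedded late in the stiffer of a pair of gels. Gastruloids are aggregates of mouse embryonic stem cells that break symmetry, form the germ layers and elongate along an anterior-posterior axis in culture. All groups were made from mouse embryonic stem cells of the 129/SVEV background, seeded at 300 cells per well and given a 24 h pulse of 3 μM CHIR99021, an activator of Wnt signaling, from 48 h. They were embedded in 1.5 mM dextran hydrogel, a bioinert gel, at 72 h (3 libraries) or at 96 h (3 libraries) after seeding, and all were collected at 120 h. The comparison asks whether the stage at which a gel surrounds the aggregate matters for expression at a fixed end point. The early group had therefore spent 48 h in the gel and the late group 24 h, so that age at embedding and time in the gel cannot be told apart. About 30 gastruloids were pooled in a library, and no library of gastruloids without gel was analysed here. These are 6 of its 12 libraries. The other 6 come from 1.0 mM gels embedded at the same times. Every gene off the mitochondrial chromosome was taken, which gave 55105 of 55141 genes.

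Total counts ran from 23011791 to 25048161 at 72 h and from 25701721 to 27059606 at 96 h, without overlap. Mitochondrial genes took 1.94 to 2.15% of the counts at 72 h and 2.46 to 3.02% at 96 h. *CT010467.1*, a gene of ribosomal RNA type, took from 0.223 to 6.12% with no order by group, the highest share being in replicate 1 at 72 h. That library stood apart. Across genes, its correlation with the other libraries of its group was 0.986 to 0.987, against 0.993 between the other 2, and it was closer (0.990) to a library embedded at 72 h in a 1.0 mM gel. Such closeness to another group was not particular to it. Replicates 1 and 3 at 96 h also correlated best with a library of another group (0.99227 and 0.99129), against at most 0.99142 and 0.99128 within their own. Results that rest on replicate 1 at 72 h are given with and without it below. The study's methods describe all replicates as biological. In bulk RNA, fewer cells of a type and less RNA per cell cannot be told apart.

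During the days covered here the mouse embryo passes from gastrulation to the laying down of the trunk. Epiblast cells lose pluripotency genes, Nodal and Wnt signals pattern the primitive streak, axial cells form the node and notochord, and paraxial cells form somites under the control of segmentation-clock, retinoic acid and Hox genes. Markers of these tissues were looked for in 45 gene lists. Most were measurable, among them all 9 node and notochord genes, all 11 somite genes and all 13 endothelial genes. Several classes were near 0 in every library. *Wnt3a*, *Cdx4* and *Msgn1*, markers of the tail bud and presomitic mesoderm, reached at most 2, 4 and 3 counts, the globin genes *Hbb-bh1*, *Hba-x* and *Hbb-y* at most 2, 1 and 0, and the neurogenic factor *Neurog1* at most 1 count.

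Of 15683 genes tested, 498 (3.18%) differed between early and late embedding by more than 2-fold at an adjusted p below 0.05 in edgeR's quasi-likelihood test. Of these, 252 (1.61%) were higher and 246 (1.57%) were lower after embedding at 72 h. Genes that met both criteria are said below to have risen or fallen at 72 h relative to 96 h, and fold changes are log2 of 72 h over 96 h. Standard errors, in the text and figures, are approximate. Each is the absolute log2 fold change divided by the square root of the test's F statistic. The median over all tested genes was -0.01. The falls went further than the rises, with 67 genes lower and 23 higher by more than 2 on the log2 scale. Most of the genes that changed were of low abundance. Their median level was 2.36 CPM (counts scaled by library total) for rises and 1.57 CPM for falls, against 21.9 CPM over all tested genes. The 3 libraries of one group lay wholly above those of the other for 491 of the 498, and for 40.0% of all tested genes. With the adjusted p alone, 3033 genes (19.3%) passed, 1624 (10.4%) higher and 1409 (8.98%) lower. These shares over all tested genes are the ones to set beside the counts of list members below. The count of 498 fell to 298 without replicate 3 at 96 h. Rises were fewer without 96 h replicate 2 (149) and 96 h replicate 3 (115), and without replicate 1 at 72 h there were 283 rises and 353 falls.

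**Figure D1:**
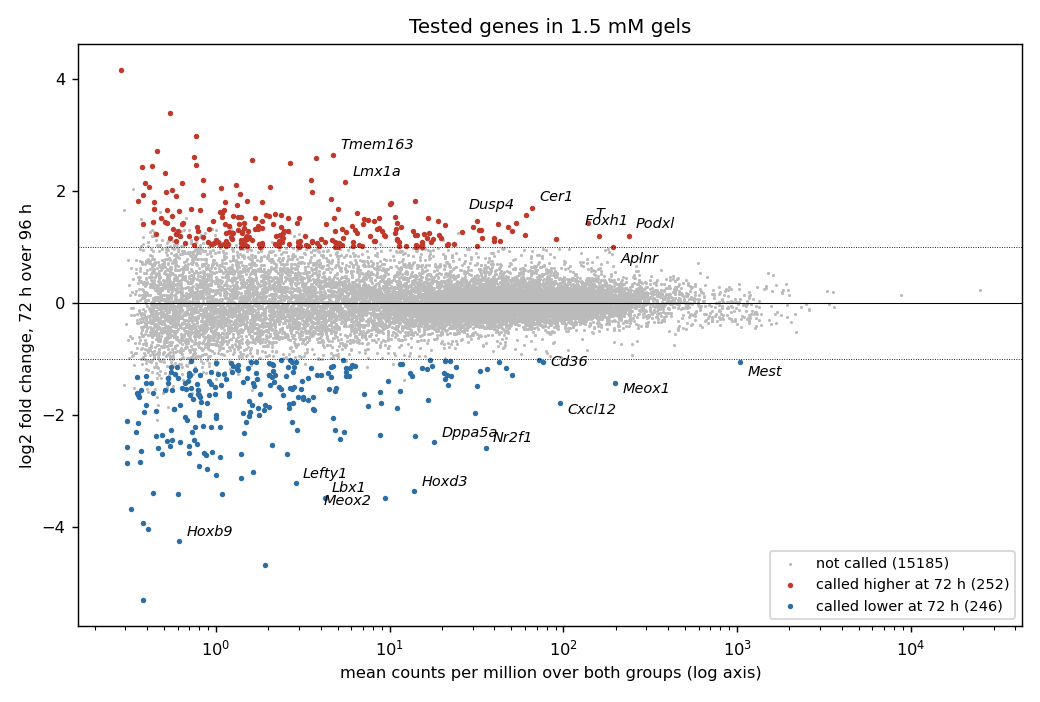
Each point is one of the 15683 genes tested in 1.5 mM gels, with its mean level in CPM on a log axis and its log2 fold change of 72 h over 96 h; red points are the 252 called rises, blue points the 246 called falls, grey points the rest, and dotted lines mark 2-fold. The deepest falls among the labelled genes are *Hoxb9*, *Meox2*, *Lbx1* and *Hoxd3*, while *T*, *Foxh1* and *Podxl* rise at high abundance.

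*T* and several genes of the node and notochord were higher after early embedding. *T* encodes Brachyury, the T-box factor of the streak and notochord, and lies at chr17:8434423-8442496 (mm10). It stood at 179, 226 and 199 CPM at 72 h and 82.1, 68.7 and 74.2 CPM at 96 h. Every 72 h library had more than 2 times the CPM of every 96 h library, and *T* rose (log2 fold change 1.42 ± 0.10, adjusted p = 0.00026). In the list of 11 posterior and neuromesodermal genes that holds *T*, it was the 1 change. There *Sp8* (0.77) and *Cyp26a1* (0.60) passed the adjusted p below 2-fold, 8 genes did not pass, and the median was -0.04. *Shh*, the Hedgehog ligand secreted by notochord and floor plate, stood at 43.0, 53.3 and 43.9 CPM at 72 h and 23.3, 13.2 and 14.3 CPM at 96 h. It also rose without overlap (log2 fold change 1.46 ± 0.19, adjusted p = 0.0029). *Noto*, a homeobox gene of the node, was low, at 3.00, 4.17 and 2.69 CPM at 72 h and 1.79, 0.956 and 1.51 CPM at 96 h. The groups were separate and it rose (log2 fold change 1.20 ± 0.28, adjusted p = 0.018), a call that was lost without 72 h replicate 2 or 96 h replicates 2 or 3 (0.99 to 1.25). Over the 9 node and notochord genes 2 rose and none fell, against 1.61% and 1.57% of all tested genes, with a median of 0.63. A further 5 passed the adjusted p below 2-fold, all in the same direction, namely *Foxa2* (0.66), *Chrd* (0.63), *Foxj1* (0.62), *Pkd1l1* (0.52) and *Sox9* (0.49). They include *Foxa2*, a regulator of axial mesendoderm, *Chrd*, an antagonist of BMP, and *Foxj1*, a regulator of motile cilia. *Nog*, another BMP antagonist of the notochord, did not pass (0.77, adjusted p = 0.066), and 1 of its late libraries reached the level of the early ones, as it was at 17.3, 23.3 and 19.8 CPM at 72 h and 8.74, 18.0 and 8.65 CPM at 96 h.

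In the Hedgehog list *Shh* was the only gene to rise among 12 tested. Some other members differed by less than 2-fold, and 6 did not pass. Among those 6 were *Gli1* (0.28, adjusted p = 0.064) and *Hhip* (0.48, adjusted p = 0.064). *Ptch1*, the receptor whose transcription Hedgehog signaling induces, was at 0.91 (adjusted p = 0.0014). The co-receptor genes *Boc* and *Gas1*, which Hedgehog signaling represses, were at -0.94 (adjusted p = 0.003) and -0.83 (adjusted p = 0.0035). *Gli3* was at 0.46 and *Gli2* at -0.43. The median of the list was 0.17.

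**Figure D2:**
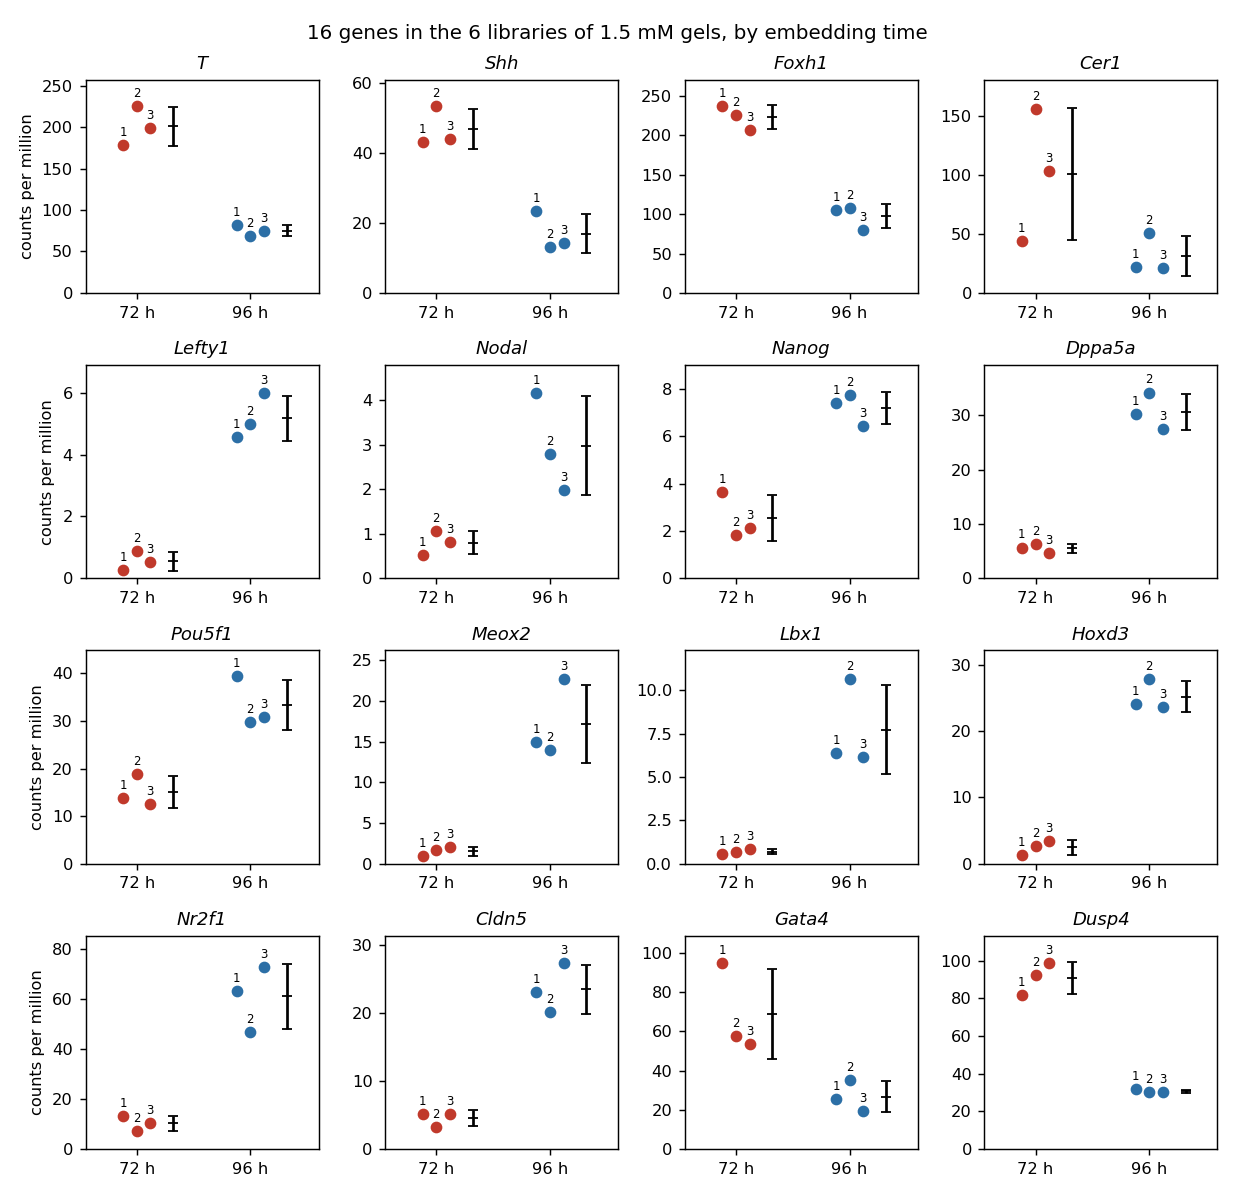
CPM of 16 genes in each of the 6 libraries of 1.5 mM gels, red for embedding at 72 h and blue for embedding at 96 h, with the replicate number above each point and the mean ± SD (n = 3) in black beside it; each axis starts at 0. The early libraries of *Cer1* are widely spread and *Gata4* has 1 early library far from the other 2, whereas *T*, *Dppa5a*, *Hoxd3* and *Dusp4* are tight within groups and apart between them.

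Of 16 Nodal pathway genes tested, 5 fell and 3 rose at 72 h, against 1.57% and 1.61% of all tested genes. The median was 0.20. *Nodal* itself, the ligand that induces mesendoderm, stood at 0.530, 1.05 and 0.802 CPM at 72 h and 4.17, 2.79 and 1.97 CPM at 96 h. It fell (log2 fold change -1.90 ± 0.35, adjusted p = 0.008), as did *Gdf3*, which encodes a partner ligand (log2 fold change -2.05 ± 0.34, adjusted p = 0.0057). The secreted inhibitors *Lefty1* and *Lefty2*, direct targets of the pathway that lie near each other on chromosome 1 (chr1:180935022-180938400 and chr1:180893108-180899103), fell further. *Lefty1* stood at 0.265, 0.877 and 0.521 CPM at 72 h and 4.57, 4.98 and 5.99 CPM at 96 h and fell by 3.21 ± 0.33 on the log2 scale (adjusted p = 0.0012). *Lefty2* stood at 0.132, 0.132 and 0.361 CPM at 72 h and 2.38, 1.16 and 1.85 CPM at 96 h and fell by 3.06 ± 0.46 (adjusted p = 0.0041). No early library reached the lowest late one for any of the 4. All 4 were at a few CPM or less.

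The 3 rises included another inhibitor. *Foxh1*, the factor through which Smad proteins reach many Nodal targets, was the most abundant, at 237, 226 and 208 CPM at 72 h and 106, 107 and 80.0 CPM at 96 h. It rose (log2 fold change 1.19 ± 0.11, adjusted p = 0.00076). *Cfc1*, which encodes the co-receptor Cryptic, stood at 119, 56.3 and 57.2 CPM at 72 h and 28.5, 38.1 and 19.8 CPM at 96 h and rose (log2 fold change 1.43 ± 0.31, adjusted p = 0.014). Replicate 1 at 72 h was high among its group, and the call was lost without 72 h replicate 1 or 96 h replicate 3 (0.98 to 1.22). *Cer1*, a secreted antagonist of Nodal, BMP and Wnt, stood at 44.3, 156 and 103 CPM at 72 h and 22.2, 50.6 and 20.7 CPM at 96 h and rose (log2 fold change 1.70 ± 0.45, adjusted p = 0.028). Here it was the same library that was low, and the groups overlapped. The call was lost without 72 h replicates 2 or 3 or 96 h replicates 1 or 3 (1.24 to 1.69). A further 4 genes of the list passed the adjusted p below 2-fold: *Acvr2b* (0.69), *Smad3* (0.30) and *Smad2* (0.24) above 0 and *Pcsk6* (-0.69), a convertase of Nodal, below. The co-receptor gene *Tdgf1* did not pass (0.66, adjusted p = 0.081). Without 96 h replicate 3, the rises of the pathway were reduced to *Foxh1*.

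Genes of pluripotency were lower after early embedding. *Nanog*, *Esrrb*, *Zfp42*, *Nr0b1* and *Fgf4* fell of 10 naive pluripotency genes tested, none rose, and the median was -1.09. Over all tested genes 1.57% fell. *Zfp42*, also called Rex1, had very even levels, at 0.971, 1.01 and 1.04 CPM at 72 h and 4.95, 4.82 and 4.75 CPM at 96 h. It fell (log2 fold change -2.26 ± 0.19, adjusted p = 0.00055). *Nanog*, a core factor of the naive state, stood at 3.66, 1.84 and 2.12 CPM at 72 h and 7.40, 7.77 and 6.45 CPM at 96 h (log2 fold change -1.50 ± 0.24, adjusted p = 0.0052). *Esrrb*, an orphan nuclear receptor of the same network, was at 2.16, 1.93 and 2.49 CPM at 72 h and 5.47, 4.94 and 4.21 CPM at 96 h and had a smaller fall (log2 fold change -1.15 ± 0.19, adjusted p = 0.0055). In each of these 3 the early libraries lay below all late ones. *Fgf4*, a growth factor target of Oct4 and Sox2, fell by 2.53 ± 0.27 and *Nr0b1* by 3.67 ± 0.55 on the log2 scale, the latter from under 1 CPM. The other members did not pass, among them *Klf2* (-1.02), *Klf5* (-0.47) and *Klf4* (-0.15).

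To show where known regulatory letters lie in these genes, promoters of RefSeq (GRCm38.p6, the build of mm10), from 250 bases before to 50 after a start, were searched on both strands. The Oct4-Sox2 composite (TTTGCAT, any base, then ACAA) occurred in 0.0365% of 32851 promoters and, among the 8 pluripotency genes with a promoter in the table, in *Nanog* alone. The octamer ATTTGCAT occurred in 1.74% of all promoters and among those 8 in *Zfp42* alone. The 2 motifs share the letters TTTGCAT. Capitals mark the match, which begins 75 bases before the start in *Nanog* (chr6:122707370-122707469, plus strand) and 186 bases before it in *Zfp42* (chr8:43307142-43307241, minus strand). These are letters in a window and say nothing of binding. Of the other motifs searched, the Foxh1 motif TGTGGATT was in 0.855% of all promoters and in 0 of 10 of Nodal pathway genes, and the Brachyury motif TCACACCT in 1.28% and in 0 of 4 of node and notochord genes. A retinoic acid response element, GGTCA or GTTCA repeated after any 5 bases, was in 0.0761% and 0.0396% and in 0 of 13 genes of the retinoic acid list.
Nanog: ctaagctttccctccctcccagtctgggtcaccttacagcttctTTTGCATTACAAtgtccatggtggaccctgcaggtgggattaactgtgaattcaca
Zfp42: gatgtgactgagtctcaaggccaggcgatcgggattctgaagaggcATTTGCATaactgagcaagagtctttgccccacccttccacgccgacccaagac

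The same direction held among genes shared by pluripotent and germ cells. *Dppa5a*, a pluripotency-associated gene at chr9:78367052-78368177, was among the 5 genes with the smallest p. It stood at 5.65, 6.27 and 4.57 CPM at 72 h and 30.2, 34.2 and 27.4 CPM at 96 h (log2 fold change -2.48 ± 0.14, adjusted p = 0.0001). *Dppa4*, a chromatin factor, was at 3.57, 3.20 and 3.65 CPM at 72 h and 11.5, 10.6 and 9.89 CPM at 96 h (log2 fold change -1.61 ± 0.14, adjusted p = 0.00069), and its partner *Dppa2* fell from lower levels (log2 fold change -2.66 ± 0.39, adjusted p = 0.0038). *Tfap2c*, needed by germ cell precursors, also fell (log2 fold change -1.50 ± 0.19, adjusted p = 0.0028). These 4 fell of 11 tested, and none rose, against 1.57% and 1.61% of all tested genes. Of the other germ cell genes *Prdm1* was at 0.52 (adjusted p = 0.014), opposite to the 4, and *Ifitm3*, *Kit* and *Alpl* did not pass. The marker list of germ cells as a whole had a median of -0.21.

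The epiblast and primitive streak list split, with 2 rises and 2 falls of 13, against 1.61% and 1.57% of all tested genes, and a median of -0.25. *Pou5f1*, which encodes Oct4, stood at 13.9, 18.9 and 12.5 CPM at 72 h and 39.4, 29.7 and 30.8 CPM at 96 h and fell (log2 fold change -1.14 ± 0.16, adjusted p = 0.0036). *Utf1*, a chromatin factor of pluripotent cells, fell more (log2 fold change -2.35 ± 0.18, adjusted p = 0.00055). The rises were *Foxd4*, a forkhead gene of the early neural ectoderm, at 15.4, 18.3 and 13.9 CPM at 72 h and 5.28, 4.90 and 3.55 CPM at 96 h (log2 fold change 1.79 ± 0.17, adjusted p = 0.001), and *Lhx1*, a homeobox gene of the organizer and intermediate mesoderm, at 36.2, 54.1 and 49.2 CPM at 72 h and 20.8, 18.6 and 17.1 CPM at 96 h (log2 fold change 1.30 ± 0.14, adjusted p = 0.0015). Other genes of the streak in this list did not pass, with *Eomes* (-0.25), *Mixl1* (-0.56), *Gsc* (-0.47) and *Mesp1* (0.46), whereas *T* rose, as given above. *Sox2*, which marks the posterior pole and neural cells, was at 23.2, 20.0 and 20.7 CPM at 72 h and 31.1, 26.4 and 27.9 CPM at 96 h, a difference under 2-fold (log2 fold change -0.42 ± 0.10, adjusted p = 0.018).

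Hox genes, whose order of activation in time follows their order along each gene cluster, were mostly lower after early embedding. Of 39 Hox genes 17 were tested. Of those, 10 fell, 3 more were lower with an adjusted p below 0.05 and under 2-fold, and 4 did not pass. Over all tested genes 1.57% fell. The 22 Hox genes not tested had at most 26 counts in a library. The largest fall at a sizeable level was *Hoxd3* (chr2:74711927-74748271), at 1.28, 2.59 and 3.45 CPM at 72 h and 24.1, 27.9 and 23.6 CPM at 96 h (log2 fold change -3.36 ± 0.25, adjusted p = 0.00054). *Hoxa3*, at 6.31, 7.81 and 9.10 CPM at 72 h and 16.6, 19.8 and 20.9 CPM at 96 h, fell less (log2 fold change -1.30 ± 0.15, adjusted p = 0.0021), and *Hoxa2*, at 22.8, 30.7 and 34.0 CPM at 72 h and 57.2, 67.8 and 69.4 CPM at 96 h, about as much (log2 fold change -1.15 ± 0.14, adjusted p = 0.0023). In *Hoxb4* the groups stood at 4.32, 3.73 and 3.41 CPM at 72 h and 8.74, 8.17 and 8.07 CPM at 96 h (log2 fold change -1.13 ± 0.15, adjusted p = 0.0028). In all 4 genes each early library was below each late one. *Hoxd4* and *Hoxa4* fell by 2.12 and 2.31 on the log2 scale. The gene spans of *Hoxd3* and *Hoxd4* overlap, as do those of *Hoxa3*, *Hoxa4* and *Hoxa5*, and how the counting shared such reads is not known.

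Hox genes of higher paralogue number were near the limit of detection. *Hoxb9* stood at 0.0441, 0.0439 and 0.0802 CPM at 72 h and 0.930, 0.876 and 1.70 CPM at 96 h (log2 fold change -4.25 ± 0.54, adjusted p = 0.0027). *Hoxb8* was at 0.309, 0.351 and 0.401 CPM at 72 h and 1.79, 2.51 and 4.40 CPM at 96 h (log2 fold change -3.01 ± 0.41, adjusted p = 0.0031), and *Hoxd8* and *Hoxa5* fell by 2.90 and 2.68. Their early libraries held under 0.5 CPM each. The medians were -1.15 over 11 genes of paralogues 1 to 4 and -2.68 over 5 genes of paralogues 5 to 8. *Hoxb1* was at 0.01 ± 0.19, and *Hoxd1* (-1.25), *Hoxb5* (-0.97) and *Hoxb6* (-0.50) did not pass. Without replicate 1 at 72 h the falls among paralogues 5 to 8 numbered 5 instead of 3.

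**Figure D3:**
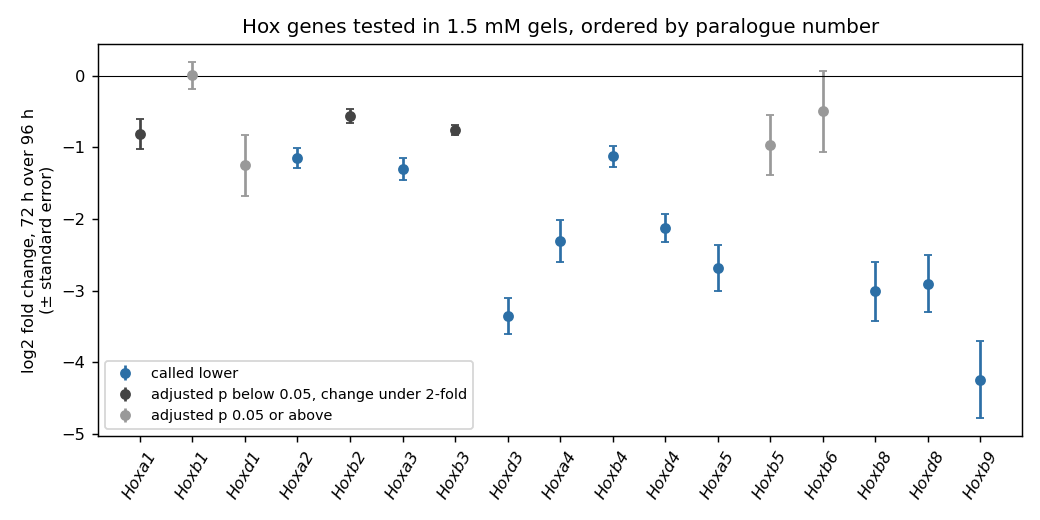
Log2 fold change of 72 h over 96 h in 1.5 mM gels, with standard errors, for the 17 Hox genes tested, in order of paralogue number; blue points are the 10 called falls, dark grey points pass the adjusted p below 2-fold and light grey points do not pass. Only *Hoxb1* lies at 0, and the values of *Hoxd3*, *Hoxb8*, *Hoxd8* and *Hoxb9* lie at -2.90 or below.

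Retinoic acid, made by somites, activates anterior Hox genes and is broken down by Cyp26 enzymes. The orphan nuclear receptor gene *Nr2f1*, which retinoic acid induces, stood at 13.1, 7.28 and 10.3 CPM at 72 h and 63.2, 46.9 and 72.8 CPM at 96 h. Its early libraries were all below the lowest late one (log2 fold change -2.58 ± 0.21, adjusted p = 0.00055). *Crabp2*, which carries retinoic acid to its receptors, stood at 12.4, 11.3 and 10.2 CPM at 72 h and 28.0, 19.9 and 20.7 CPM at 96 h (log2 fold change -1.01 ± 0.15, adjusted p = 0.0038). Its call was lost without 72 h replicate 3 or 96 h replicate 1 (-0.84 to -0.94). These were the 2 falls among 17 genes, and none rose, where 1.57% of all tested genes fell. A further 4 were lower below 2-fold, *Nr2f2* (-0.82), *Meis2* (-0.70), *Meis1* (-0.56) and *Rara* (-0.39), and 2 were higher, *Cyp26a1* (0.60) and *Rarg* (0.26). The median of the list was -0.17. The enzyme gene *Aldh1a2*, which makes retinoic acid, was at 0.05 (adjusted p = 0.87).

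Somite genes were lower after early embedding, 4 falling of 11 with no rise and a median of -0.55, where 1.57% of all tested genes fell. *Meox1*, a homeobox gene of the whole somite, was abundant, at 67.0, 121 and 136 CPM at 72 h and 239, 276 and 349 CPM at 96 h (log2 fold change -1.42 ± 0.23, adjusted p = 0.0053). Its relative *Meox2* had the largest fall among genes of 100 or more counts on average, at 0.927, 1.62 and 2.04 CPM at 72 h and 14.9, 14.0 and 22.8 CPM at 96 h (log2 fold change -3.48 ± 0.28, adjusted p = 0.00055). *Tbx18* of the anterior somite part and *Pax1* of the sclerotome fell with weaker support. *Tbx18* was at 7.10, 9.30 and 16.7 CPM at 72 h and 21.3, 20.5 and 30.5 CPM at 96 h (log2 fold change -1.12 ± 0.28, adjusted p = 0.023). *Pax1*, at 3.09, 1.18 and 2.61 CPM at 72 h and 6.66, 2.67 and 10.7 CPM at 96 h, overlapped between groups (log2 fold change -1.54 ± 0.47, adjusted p = 0.05). The call of *Tbx18* was lost without 72 h replicates 1 or 2 or 96 h replicate 3 (-0.89 to -1.01), and that of *Pax1* without 72 h replicates 2 or 3 or 96 h replicates 1 or 3 (-1.02 to -1.64) and with DESeq2 or limma-voom or RLE normalization or the stricter filter or mitochondrial genes kept. The other members with an adjusted p below 0.05 were *Tcf15* (-0.89), *Uncx* (-0.55), *Pax9* (-0.50) and *Foxc1* (-0.44). *Foxc1*, a forkhead factor of anterior paraxial mesoderm, was at 169, 188 and 203 CPM at 72 h and 237, 261 and 263 CPM at 96 h. *Nkx3-2*, *Twist1* and *Foxc2* did not pass.

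Of 9 dermomyotome genes tested, *Lbx1*, a marker of migrating muscle precursors at chr19:45232684-45235812, fell. It stood at 0.574, 0.658 and 0.842 CPM at 72 h and 6.36, 10.7 and 6.14 CPM at 96 h, so that every early library was under 1 CPM (log2 fold change -3.47 ± 0.29, adjusted p = 0.00068). Among those lower by less than 2-fold were *Sim1* (-0.95), *Met* (-0.70) and *Eya1* (-0.36), and *Pax3* did not pass (-0.55, adjusted p = 0.065). The median was -0.70. The muscle determination genes *Myf5*, *Myod1*, *Myf6* and *Myog* were not tested, with at most 8, 6, 5 and 0 counts in a library. In the presomitic list *Dll3*, a Notch ligand of the segmentation clock, was the 1 gene of 10 to change, and it was higher, at 23.1, 36.0 and 28.1 CPM at 72 h and 14.5, 17.1 and 10.5 CPM at 96 h (log2 fold change 1.05 ± 0.19, adjusted p = 0.0082). Its call was lost without 72 h replicate 2 or 96 h replicate 3 (0.87 to 0.88). *Lfng*, a Notch-modifying enzyme of the clock, was at 0.67 (adjusted p = 0.048), and *Tbx6*, *Dll1* and *Mesp2* did not pass. In the Notch list of 16, *Dll3* was also the only change.

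Heart regulators were higher after early embedding, and replicate 1 at 72 h had the highest levels of most of them. Of 12 tested 5 rose and none fell, against 1.61% and 1.57% of all tested genes, and the median was 1.05. *Gata4*, a zinc-finger factor of cardiac mesoderm, stood at 95.2, 57.8 and 53.7 CPM at 72 h and 25.7, 35.4 and 19.2 CPM at 96 h (log2 fold change 1.36 ± 0.25, adjusted p = 0.0078). *Nkx2-5*, the homeobox factor of cardiac progenitors, was at 12.8, 5.96 and 8.14 CPM at 72 h and 4.05, 4.02 and 2.82 CPM at 96 h (log2 fold change 1.30 ± 0.28, adjusted p = 0.013), and *Tbx20*, a T-box factor of the heart, at 95.4, 43.3 and 43.9 CPM at 72 h and 27.3, 27.4 and 14.3 CPM at 96 h (log2 fold change 1.40 ± 0.33, adjusted p = 0.019). In all 3 replicate 1 was the highest early library and the groups did not overlap. *Mef2c* stood at 188, 79.4 and 107 CPM at 72 h and 75.2, 48.0 and 46.7 CPM at 96 h (log2 fold change 1.14 ± 0.29, adjusted p = 0.026), and *Wnt2*, a Wnt ligand of the heart field, at 17.4, 7.24 and 5.89 CPM at 72 h and 4.87, 3.82 and 2.78 CPM at 96 h (log2 fold change 1.40 ± 0.39, adjusted p = 0.035). Over these 12 genes the summed level was 588 to 1049.7 CPM at 72 h and 299.7 to 486 CPM at 96 h. Without replicate 1 at 72 h only *Gata4* kept its call (1.06, adjusted p = 0.0029), and *Nkx2-5*, *Tbx20*, *Mef2c* and *Wnt2* were at 0.96, 0.93, 0.72 and 0.77. Without 96 h replicate 3 there was also 1 call, and calls of *Wnt2* and *Mef2c* were lost without 72 h replicate 1 or 96 h replicates 1, 2 or 3 (0.77 to 1.62) and without 72 h replicate 1 or 96 h replicates 2 or 3 (0.72 to 1.03) respectively. *Wnt2* also lost its call with limma-voom and with all 12 libraries in the fit.

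Genes of the contractile apparatus of the heart were not called by the same test. None of 14 cardiomyocyte structure genes was called by edgeR, DESeq2 or limma-voom, while 1 was called with a replicate block and 1 without the filter on low counts. An unadjusted p below 0.05 was found for 2 of the 14, against 35.1% of all tested genes. *Myl7*, the atrial myosin light chain, stood at 64.4, 19.3 and 20.2 CPM at 72 h and 23.8, 9.32 and 10.6 CPM at 96 h, where replicate 1 of each group was the highest (1.24 ± 0.49, adjusted p = 0.1). *Tnnt2*, cardiac troponin T, stood at 25.9, 12.0 and 10.7 CPM at 72 h and 17.4, 4.06 and 8.77 CPM at 96 h (0.68 ± 0.47, adjusted p = 0.34). The early and late libraries of both overlapped. The median was 0.49.

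In 1.0 mM gels most of the same genes had larger fold changes between embedding times. All 12 regulators and 12 of the 14 structure genes were called there, with medians of 2.34 and 2.00. *Gata4* was at 2.57 ± 0.33, *Nkx2-5* at 2.53 ± 0.41 and *Myl7* at 2.92 ± 0.44 on the log2 scale. The fold change was above that in 1.5 mM gels for 12 of 12 regulators and 13 of 14 structure genes. The test of the difference itself, an interaction of embedding time and gel over all 12 libraries, gave an unadjusted p below 0.05 for 9 of the 12 and 9 of the 14, against 4.32% of all genes tested for it. No adjusted p of any gene in this fit was below 0.953, so it showed no difference between gels for any heart gene after correction. Without the filter on low counts 112 genes were called for the interaction, and with a replicate block 4. Which genes those were is not given here.

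**Figure D4:**
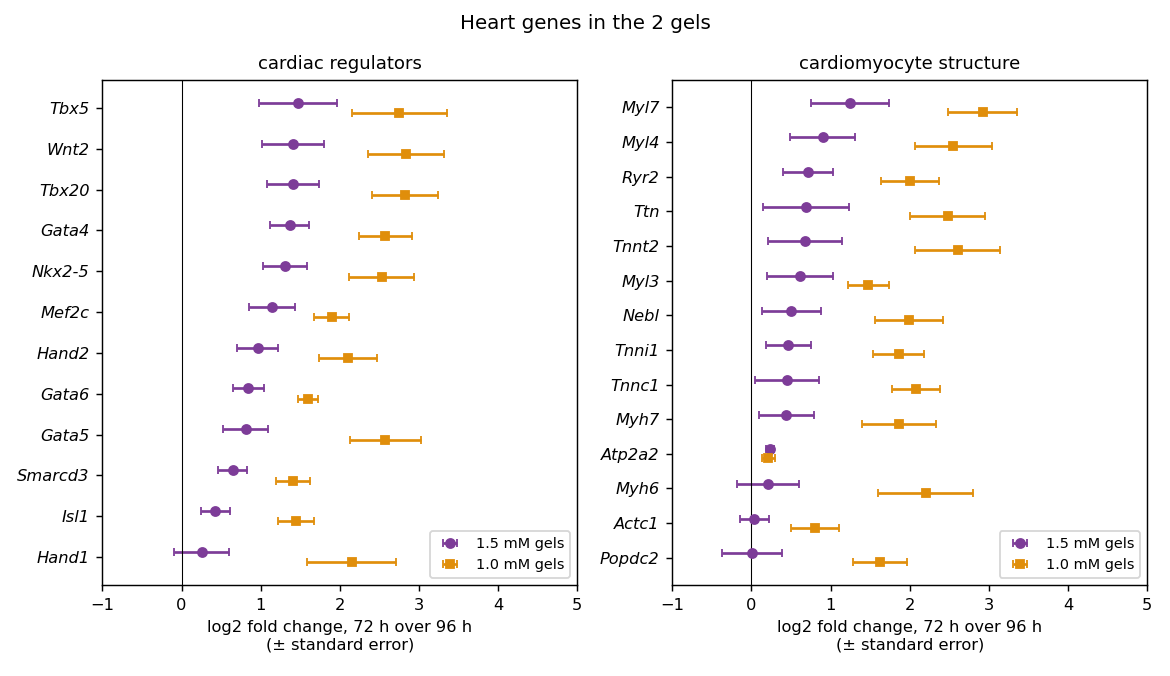
Log2 fold change of 72 h over 96 h, with standard errors, for the 12 cardiac regulators and the 14 cardiomyocyte structure genes tested, with circles for 1.5 mM gels and squares for 1.0 mM gels. The squares lie to the right of the circles for all genes but *Atp2a2*. No interaction passed correction in the main fit.

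Several markers of endothelium were lower after early embedding, 3 falling of 13 tested, where 1.57% of all tested genes fell. *Cldn5*, the tight-junction claudin of endothelium, stood at 5.21, 3.20 and 5.17 CPM at 72 h and 23.1, 20.1 and 27.4 CPM at 96 h and fell (log2 fold change -2.37 ± 0.19, adjusted p = 0.00055). *Sox18*, a factor of vessel and lymphatic development, was at 16.4, 8.38 and 11.6 CPM at 72 h and 27.3, 24.0 and 35.1 CPM at 96 h (log2 fold change -1.25 ± 0.22, adjusted p = 0.0072), and *Emcn*, which encodes endomucin, at 1.99, 0.789 and 1.44 CPM at 72 h and 4.17, 3.82 and 5.52 CPM at 96 h (log2 fold change -1.68 ± 0.30, adjusted p = 0.0075). No early library reached a late one in these 3. No gene of the list rose, the median was -0.45, and *Tie1* was lower below 2-fold (-0.98, adjusted p = 0.039). *Tal1*, which acts in the shared precursors of blood and endothelium, was higher (0.69, adjusted p = 0.018). *Kdr*, the VEGF receptor, and *Etv2* did not pass (0.24 and 0.26). *Cdh5* and *Pecam1* did not pass either, and replicate 1 was the highest early library in both, at 38.0, 12.6 and 26.2 CPM at 72 h and 45.5, 35.4 and 49.0 CPM at 96 h for *Cdh5*. Without that library 6 endothelial genes were called, all lower. Of the blood genes 2 could be tested, and *Gata1*, an erythroid factor at under 1 CPM, rose (log2 fold change 1.93 ± 0.49, adjusted p = 0.026), a call lost without 72 h replicate 2 or 96 h replicates 2 or 3 (1.62 to 1.95). *Gata1* was not called with DESeq2 or with the stricter filter either.

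In the neural lists 1 of 11 neural progenitor genes, 3 of 10 neuron genes and 1 of 6 neural crest genes were called, against 3.18% of all tested genes. *Lmx1a*, a roof plate and midbrain factor at chr1:167689237-167848741, stood at 8.60, 10.0 and 8.66 CPM at 72 h and 2.05, 1.39 and 2.63 CPM at 96 h. It was the 1 rise of 11 neural progenitor genes (log2 fold change 2.16 ± 0.22, adjusted p = 0.0011), whose median was 0.24. Of 10 neuron genes *Map2*, a microtubule-associated protein, stood at 21.0, 23.9 and 20.6 CPM at 72 h and 6.62, 5.58 and 6.34 CPM at 96 h and rose (log2 fold change 1.82 ± 0.12, adjusted p = 0.00025). *Stmn2*, a microtubule regulator, rose less (log2 fold change 1.02 ± 0.20, adjusted p = 0.011), and its call was lost without 72 h replicate 2 or 96 h replicate 3 (0.83 to 0.89) and with upper quartile normalization. *Gap43*, a growth cone protein, stood at 2.91, 1.93 and 2.49 CPM at 72 h and 7.59, 5.58 and 8.46 CPM at 96 h and fell (log2 fold change -1.56 ± 0.22, adjusted p = 0.0032). *Tubb3* was at 0.77 (adjusted p = 0.0092), *Nefl* was at -0.54 (adjusted p = 0.035), and *Dcx* and *Elavl3* did not pass. Of 6 neural crest genes *Foxd3*, which also serves pluripotent cells, fell (log2 fold change -1.99 ± 0.40, adjusted p = 0.011).

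*Krt19*, a keratin of simple epithelia, stood at 22.8, 27.5 and 21.1 CPM at 72 h and 10.8, 11.2 and 7.80 CPM at 96 h and was the 1 change of 16 endoderm genes (log2 fold change 1.26 ± 0.16, adjusted p = 0.0026). *Krt8* and *Krt18*, its partners in simple epithelia, were at 0.96 and 0.70 with adjusted p below 0.05, as was the endoderm factor *Hhex* (0.62). Lower were *Sox17* (-0.53) and *Cldn4* (-0.81). *Epcam* and *Cdh1* did not pass, and the median was 0.14. In lateral and intermediate mesoderm *Lhx1* and *Emx2*, a homeobox gene of the urogenital system, rose of 10 tested. *Emx2* stood at 1.50, 4.56 and 4.13 CPM at 72 h and 1.04, 1.83 and 1.12 CPM at 96 h (log2 fold change 1.35 ± 0.40, adjusted p = 0.045), and its call was lost without 72 h replicates 2 or 3 or 96 h replicates 1, 2 or 3 (1.09 to 1.65) and with limma-voom.

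Secreted antagonists of Wnt were higher at 72 h in 2 of 11 cases, *Cer1* and *Sfrp5*. *Sfrp5*, a frizzled-related protein of the heart field and foregut, stood at 26.7, 9.56 and 10.3 CPM at 72 h and 5.28, 5.22 and 3.09 CPM at 96 h (log2 fold change 1.77 ± 0.39, adjusted p = 0.016). Replicate 1 was again the highest, and the value was 1.13 (adjusted p = 0.0042) without it. The call was lost without 96 h replicate 3 (1.56). *Sfrp1* and *Frzb* were at 0.96 and 0.82, and *Draxin* at -0.86, all with adjusted p below 0.05. Of 12 Wnt ligand genes *Wnt2* and *Wnt2b* rose. *Wnt2b* stood at 0.706, 0.702 and 0.962 CPM at 72 h and 0.0744, 0.279 and 0 CPM at 96 h, at most 7 counts in a late library (log2 fold change 2.72 ± 0.65, adjusted p = 0.021), and its call was lost without 72 h replicate 3 or 96 h replicates 1 or 3 (2.16 to 2.55). It was at 2.16 to 4.22 with a library left out, the highest without 96 h replicate 2, and it was not called with the stricter filter.

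Of the common feedback targets of Wnt few differed. *Lgr5*, a receptor of R-spondins, was the 1 change of 10, at 15.8, 19.1 and 15.3 CPM at 72 h and 7.40, 7.57 and 4.67 CPM at 96 h (log2 fold change 1.35 ± 0.19, adjusted p = 0.0031). *Axin2*, *Lef1*, *Tcf7*, *Nkd1* and *Rnf43* did not pass and lay between -0.08 and 0.25. The median was 0.03. The Tcf motif CTTTGAT was found in 3.73% of all promoters and in *Sp5* among 7 of these genes with a promoter.

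*Dusp4*, a phosphatase that dampens ERK signaling, had the smallest p of all genes. It stood at 81.9, 92.4 and 98.6 CPM at 72 h and 31.6, 30.1 and 30.0 CPM at 96 h (log2 fold change 1.57 ± 0.08, adjusted p = 8.91e-05). *Spry4*, another ERK inhibitor, was at 16.2, 10.7 and 12.6 CPM at 72 h and 5.84, 4.14 and 7.11 CPM at 96 h (log2 fold change 1.21 ± 0.21, adjusted p = 0.0072). Both rose without overlap, and of 12 ERK feedback genes no other was called. Below 2-fold were *Il17rd* (0.63), *Spred1* (0.41) and *Spred2* (0.27) above 0 and *Spry1* (-0.34) below, and the median was 0.23. Of 11 FGF ligand genes *Fgf4* was the only change, while *Fgf10* and *Fgf13* were at 0.97 and 0.84 with adjusted p below 0.05, and *Fgf8* did not pass (0.16). In the BMP list *Bmp5* was the 1 rise of 16 (log2 fold change 1.31 ± 0.39, adjusted p = 0.042), at 80.4, 31.0 and 32.5 CPM at 72 h and 27.9, 17.6 and 12.3 CPM at 96 h. Replicate 1 at 72 h was the highest library, and the value was 0.72 without it. The call was lost without 72 h replicate 1 or 96 h replicates 2 or 3 (0.72 to 1.25) and with DESeq2 or limma-voom. Another 4 genes of the list were higher below 2-fold with an adjusted p below 0.05, *Bmp7* (0.96), *Bmp2* (0.95), *Id4* (0.75) and *Chrd* (0.63), and 2 were lower, *Grem1* (-0.73) and *Id2* (-0.73). The targets *Id4* and *Id2* thus differed in direction.

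Genes of cholesterol synthesis were higher by small and even amounts. Of 19 tested, 16 passed the adjusted p, all higher at 72 h, against 10.4% of all tested genes. The 3 libraries of each group did not overlap for 16 of the 19, against 40.0% of all tested genes. The median was 0.45, and 1 gene passed 2-fold. That gene, *Idi1*, makes the isoprenoid precursors and stood at 21.2, 16.4 and 20.7 CPM at 72 h and 12.4, 6.22 and 6.45 CPM at 96 h (log2 fold change 1.21 ± 0.25, adjusted p = 0.011). *Hmgcs1*, which starts the pathway, stood at 827, 687 and 714 CPM at 72 h and 557, 427 and 375 CPM at 96 h (log2 fold change 0.71 ± 0.13, adjusted p = 0.0087). The early libraries of both lay above the late ones. *Srebf2*, the factor that activates these genes, was at 0.48 with an adjusted p below 0.05. The sterol regulatory element to which that factor binds was searched for as TCACNCCAC. It occurred in 1.24% of all promoters and, among 12 of these genes with a promoter in the table, in *Hmgcs1*. There the match, in capitals, begins 137 bases before the start (chr13:119690169-119690268, plus strand, GRCm38.p6).
Hmgcs1: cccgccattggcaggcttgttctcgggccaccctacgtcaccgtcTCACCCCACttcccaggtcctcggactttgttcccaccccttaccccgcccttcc

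Genes of adhesion and matrix changed in single members. Of 23 integrin and laminin genes 2 rose, and a further 7 were higher below 2-fold. Over all tested genes 1.61% rose, and 10.4% were higher by the adjusted p alone. *Itga8*, an integrin of mesenchyme, stood at 22.8, 16.6 and 17.6 CPM at 72 h and 12.3, 8.80 and 7.22 CPM at 96 h (log2 fold change 1.01 ± 0.20, adjusted p = 0.0099). *Itga4*, a receptor for fibronectin and Vcam1, was at 3.49, 2.50 and 3.41 CPM at 72 h and 1.60, 1.24 and 1.51 CPM at 96 h (log2 fold change 1.11 ± 0.23, adjusted p = 0.011). Their calls were lost without 72 h replicate 1 or 96 h replicates 2 or 3 (0.85 to 0.96) and with upper quartile normalization, and without 96 h replicate 2 (1.01), respectively. The 7 others were *Itgb8* (0.84), *Itga6* (0.64), *Itgav* (0.55), *Lama1* (0.51), *Itgb5* (0.44), *Lamc1* (0.39) and *Itgb1* (0.34), and the median of the list was 0.26. *Cdh20* rose among 15 cadherins (log2 fold change 1.54 ± 0.28, adjusted p = 0.0075), as did *Pcdh17* (log2 fold change 1.01 ± 0.28, adjusted p = 0.036), whose call was lost without 72 h replicates 1, 2 or 3 or 96 h replicates 2 or 3 (0.81 to 1.07) and with all 12 libraries in the fit or upper quartile normalization. *Cdh2*, N-cadherin, was at 0.73 (adjusted p = 0.0064). *Col6a1* was the 1 change in a list of 20 collagen genes (log2 fold change 1.04 ± 0.23, adjusted p = 0.016), lost without 96 h replicates 2 or 3 (0.81 to 1.06). Below 2-fold with an adjusted p below 0.05 were *Col4a6* (0.88) and *Col13a1* (0.80) above 0 and *Col26a1* (-0.92) and *Col2a1* (-0.67), the collagen of cartilage and notochord sheath, below. *Col15a1*, which is not in that list, fell and is described below.

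Of 17 matrix proteases and inhibitors *Mmp9*, a gelatinase, stood at 3.75, 3.81 and 3.45 CPM at 72 h and 8.59, 7.09 and 8.92 CPM at 96 h and fell (log2 fold change -1.16 ± 0.15, adjusted p = 0.0028). *Plau*, the urokinase gene, fell from lower levels (log2 fold change -1.62 ± 0.48, adjusted p = 0.043), and its call was lost without 72 h replicates 2 or 3 or 96 h replicates 1 or 3 (-1.12 to -1.75) and with limma-voom. The membrane-bound proteases were higher, *Mmp16* (0.68), *Mmp14* (0.58) and *Mmp15* (0.47), with adjusted p below 0.05. *Ephb1*, an Eph receptor, was the 1 change of 17 Eph and ephrin genes, at 13.5, 11.6 and 10.9 CPM at 72 h and 5.65, 4.70 and 4.02 CPM at 96 h (log2 fold change 1.32 ± 0.16, adjusted p = 0.0023). Of 9 mesenchymal transition genes *Twist2* fell (log2 fold change -1.16 ± 0.23, adjusted p = 0.01), a call lost without 72 h replicate 2 (-0.98), and *Zeb2* was at 0.49 (adjusted p = 0.0094).

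Several lists that respond to mechanical or metabolic stress held no gene past both criteria. None of 10 YAP targets was called by edgeR, DESeq2 or limma-voom, and 5 had an unadjusted p below 0.05, a level that 35.1% of all tested genes passed. Their median was -0.06. With an adjusted p below 0.05, *Ccn1* was at -0.78, *Amotl2* at -0.42 and *Tead1* at 0.42. For 13 genes of contractile actin and SRF the same 3 tools gave 0 calls, the unadjusted count was 3 and the median was -0.02. *Actg1* was at 0.33 and *Myl9* at -0.64, and 1 gene was called without 72 h replicate 2. For 13 immediate early genes there were 0 calls with each tool and 7 at an unadjusted p below 0.05, of which 5 passed the adjusted p, *Atf3* (-0.98), *Junb* (-0.62), *Jund* (-0.44) and *Ier2* (-0.23) lower and *Srf* (0.34) higher. *Egr2* did not pass it (0.82, adjusted p = 0.093). This list had 1 call with upper quartile normalization, 1 without 72 h replicate 1 and 2 without 96 h replicate 1.

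The 17 mitosis genes also had 0 calls with the 3 tools, 4 unadjusted p below 0.05 (35.1% over all tested genes) and a median of 0.04. The 22 genes of hypoxia and glycolysis had 0 calls, 4 such p and a median of 0.24, with *Pfkfb3* at 0.52 (adjusted p = 0.039). Of 12 Atf4 and stress genes none was called by any of the 3, and 5 had an unadjusted p below 0.05. Without 72 h replicate 1 there were 2 calls, and without 96 h replicate 1 there was 1. Of 13 p53 targets none was called by the 3 tools, 7 had an unadjusted p below 0.05, and 6 were higher with adjusted p below 0.05 (10.4% of all tested genes were), *Pmaip1* (0.86), *Eda2r* (0.83), *Trp53inp1* (0.79), *Perp* (0.70), *Zmat3* (0.52) and *Ccng1* (0.47). Without replicate 1 at 72 h 1 target was called.

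*Mest*, a paternally expressed gene of mesoderm, had the largest difference in CPM among the falls. It stood at 829, 568 and 637 CPM at 72 h and 1394, 1188 and 1629.8 CPM at 96 h (log2 fold change -1.05 ± 0.15, adjusted p = 0.0034), and its call was lost without 72 h replicate 2 or 96 h replicate 3 (-0.93 to -0.94). It was the 1 change of 19 imprinted genes, whose median was -0.04. Below 2-fold with an adjusted p below 0.05 were *Igf2* (0.90), *Grb10* (0.59), *Sgce* (0.52) and *Igf2r* (0.41) above 0 and *Kcnq1ot1* (-0.65) and *Peg3* (-0.51) below.

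Other genes with large changes belong to none of the lists. *Tmem163*, a zinc transporter gene at chr1:127486558-127679548, had the largest rise among genes of 100 or more counts on average, at 7.90, 8.68 and 7.90 CPM at 72 h and 1.64, 1.31 and 0.927 CPM at 96 h (log2 fold change 2.65 ± 0.21, adjusted p = 0.00055). Its span overlaps that of *Mgat5*. *Snord64*, a small nucleolar RNA gene, rose (log2 fold change 1.87 ± 0.25, adjusted p = 0.0031). It was listed at 0 FPKM in every library and did not pass in 1.0 mM gels (1.03 ± 0.36). The libraries were selected for poly-A, and which transcript these reads came from was not tested. *Kcnj5*, a potassium channel (log2 fold change 1.68 ± 0.30, adjusted p = 0.0069), *Moxd1* (log2 fold change 1.61 ± 0.16, adjusted p = 0.001) and *Sel1l3* (log2 fold change 1.54 ± 0.20, adjusted p = 0.0027) rose too. In each of the 5, every early library was above every late one.

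Among abundant genes *Podxl*, a sialomucin of epiblast and other epithelia, stood at 373, 313 and 309 CPM at 72 h and 169.7, 152 and 109 CPM at 96 h (log2 fold change 1.20 ± 0.15, adjusted p = 0.0023). *Aplnr*, the apelin receptor of migrating mesoderm, stood at 219, 283 and 272 CPM at 72 h and 126, 132 and 127 CPM at 96 h (log2 fold change 1.01 ± 0.09, adjusted p = 0.00076). Its value was close to 2-fold, and the call was lost without 72 h replicates 2 or 3 or 96 h replicate 1 (0.94 to 0.99) and with upper quartile normalization. Of the falls, *Cxcl12*, a chemokine that guides migrating cells, stood at 32.4, 42.8 and 53.2 CPM at 72 h and 151, 111 and 180.0 CPM at 96 h (log2 fold change -1.78 ± 0.20, adjusted p = 0.0016). *Scube3*, a secreted modulator of signaling, was at 6.84, 7.67 and 8.62 CPM at 72 h and 26.1, 23.2 and 27.0 CPM at 96 h (log2 fold change -1.72 ± 0.12, adjusted p = 0.00026), with little spread in either group. *Cd36*, a fatty acid transporter, stood at 37.5, 49.9 and 61.2 CPM at 72 h and 96.6, 97.3 and 114 CPM at 96 h (log2 fold change -1.05 ± 0.15, adjusted p = 0.0038), a call lost without 72 h replicate 1 or 96 h replicate 3 (-0.88 to -0.97). *Col15a1*, a basement membrane collagen (log2 fold change -2.30 ± 0.25, adjusted p = 0.0014), *Sec1*, a fucosyltransferase gene (log2 fold change -2.43 ± 0.30, adjusted p = 0.0026), and *Psd2* (log2 fold change -2.27 ± 0.25, adjusted p = 0.0014) fell from levels of under 12 CPM at 96 h.

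**Figure D5:**
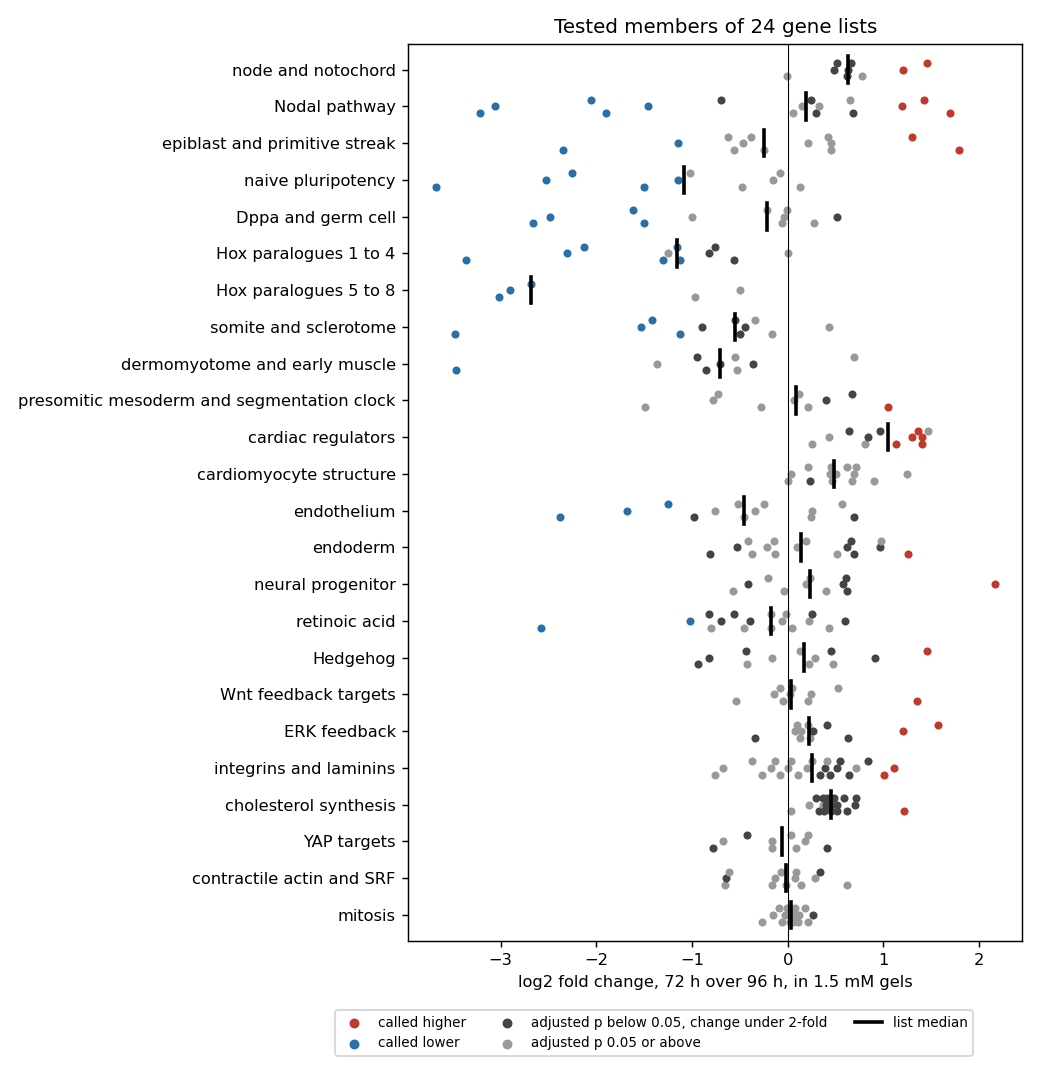
Log2 fold change of 72 h over 96 h in 1.5 mM gels for every tested member of 24 of the lists, one point per gene, with the list median as a vertical bar; red and blue mark called rises and falls, dark grey an adjusted p below 0.05 at less than 2-fold and light grey the rest. Medians run from -2.68 for Hox paralogues 5 to 8 to 1.05 for cardiac regulators, and mitosis genes sit around 0.04.

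The 1.0 mM gels give the same contrast in 6 other libraries. There 678 of 15763 genes (4.3%) passed both criteria, of which 411 (2.61%) rose and 267 (1.69%) fell at 72 h. Of the 252 genes that rose in 1.5 mM gels 241 were tested in 1.0 mM gels, where 234 had the same sign and 117 (48.5%) rose by the same criteria. Of the 246 that fell 236 were tested, 231 had the same sign and 155 (65.7%) fell. None was called in the opposite direction. Several of the genes described kept their sign, with *T* at 1.17 ± 0.14, *Lefty1* at -4.88 ± 0.26, *Dppa5a* at -2.71 ± 0.16, *Meox2* at -3.79 ± 0.28, *Hoxd3* at -3.93 ± 0.31 and *Cldn5* at -1.92 ± 0.24 on the log2 scale. By the interaction of embedding time and gel, edgeR called 0 of 16388 genes, as did limma-voom and DESeq2, and 708 had an unadjusted p below 0.05. The smallest adjusted p was 0.953. Without the filter on low counts 112 genes were called, and with a replicate block 4. Among the 498 genes, 54 had an unadjusted p below 0.05, against 4.32% of all genes tested for the interaction. The 498 were chosen by their contrast in 1.5 mM gels, which is part of the interaction, so the choice itself can raise their count. *Dusp4*, at 1.57 ± 0.08 here and 1.02 ± 0.10 in 1.0 mM gels, was one of the 54, and *Cer1*, called here and at 0.71 ± 0.37 in 1.0 mM gels, was not.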

How the data were processed

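Libraries were made from 550 ng of RNA with poly-A selection and a stranded kit, and sequenced as paired reads of 75 bp. The authors trimmed with cutadapt 4.4 and aligned to mm10 with STAR 2.7.10b, using a customized gtf of Ensembl 102. The counts that the authors deposited are unnormalized. Whether STAR or a separate counter made them differs between the methods and the table's name, and the strand setting is not given in the sources used here. The FPKM that the authors deposited came from Cufflinks 2.2.1.3, and that table was used for symbols and positions. The authors' own comparisons (fold changes and adjusted p-values) were deposited too and were not used.

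The 36 mitochondrial genes were left out. The 6 libraries were filtered with filterByExpr (minimum count 10, minimum total 15), normalized with TMM and tested, 72 h against 96 h, with edgeR's glmQLFit and glmQLFTest (edgeR 4.0.16, R 4.3.3). P-values were adjusted by Benjamini-Hochberg over all tested genes. Calls needed an adjusted p below 0.05 and a log2 fold change beyond 1 in either direction. CPM use TMM-scaled totals. The interaction with gel used all 12 libraries. The steps were tested on simulated counts. Genes named are *T*, *Sox2*, *Foxc1*, *Dppa5a* and *Hoxa3*, the 10 largest rises and 10 largest falls among called genes averaging 100 counts or more whose groups did not overlap, the 5 rises and 5 falls with the largest difference in CPM, the 5 genes with the smallest p, and members of 45 lists. The members and lists were chosen with earlier results of these data known. Alternatives were DESeq2 1.42.0, limma-voom (limma 3.58.1), all 12 libraries in the fit, RLE and upper quartile normalization, no filter, 1 CPM in 3 libraries, mitochondrial genes kept, a replicate block, each library left out, no fold threshold and an adjusted p below 0.01. A few members of the lists are not reported here. Total counts were 23011791 to 27059606 per library.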

Additional observations from a re-analysis of the deposited data

How the results depend on the processing

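The count of 498 genes called in 1.5 mM gels was 229 (96 higher, 133 lower) at an adjusted p below 0.01 and 3033 (1624 higher, 1409 lower) without a fold threshold. With each library left out in turn it ran from 298 to 636, from 115 to 283 for rises and from 179 to 353 for falls. DESeq2 called 434, limma-voom 496, the fit of all 12 libraries 547, RLE 496, upper quartile scaling 482 (218 higher, 264 lower), no filter 663, the stricter filter 367 and mitochondrial genes kept 494. The replicate block gave 543 (266 higher, 277 lower). Deviations of same-numbered libraries from their group means correlated at 0.178, 0.0891 and 0.188, and the main fit did not take the numbers as pairs. Between the 2 gels, same-numbered libraries correlated at 0.0365 to 0.313. Whether the numbers mark shared batches was not tested. Each library correlated best with its own replicate number, a hint from the data and not from the design. For the interaction of embedding time and gel, the count of 0 became 112 without a filter on low counts and 4 with the replicate block, and leaving out any library gave 0. All 98 called genes that are named kept their direction in the alternative fits that gave them an adjusted p, and 69 kept their call in each of those. A fit that left a gene untested or without an adjusted p was not counted as a loss. *Hoxb9* and *Foxd3*, for example, were not called with the stricter filter. The threshold of an adjusted p below 0.01 was not part of this count. Of the uncalled genes given with a value of their own, 3 changed sign. *Hoxb1* was at -0.00839 with limma-voom, -0.0190 with upper quartile scaling, -0.00469 with the replicate block and -0.21 to 0.14 with a library left out. *Aldh1a2* ran from -0.066 to 0.23 and *Eomes* from -0.50 to 0.080 with a library left out. The causes were not tested. Depth limits genes of few counts, such as *Hoxb9*, with a mean of 15.8 counts per library.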

Other observations

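Further genes past both criteria belong to no list and were chosen here after their values were seen. Among genes known from endothelium, *Stab1*, a scavenger receptor of sinusoidal vessels, stood at 18.1, 7.45 and 12.5 CPM at 72 h and 38.8, 41.0 and 68.4 CPM at 96 h (log2 fold change -1.96 ± 0.30, adjusted p = 0.0043). *Plvap*, of the diaphragms of fenestrated vessels, stood at 7.32, 3.77 and 5.21 CPM at 72 h and 15.4, 11.6 and 15.6 CPM at 96 h (log2 fold change -1.39 ± 0.22, adjusted p = 0.0052), and *Robo4* at 1.63, 1.36 and 2.20 CPM at 72 h and 4.17, 4.26 and 5.22 CPM at 96 h (log2 fold change -1.38 ± 0.22, adjusted p = 0.0051). All early libraries lay below all late ones in these 3. *Cd34*, *Cd93*, *Icam2* and *Pcdh12* were also lower, at -1.16, -1.12, -1.32 and -1.78 on the log2 scale, with adjusted p below 0.05. The call of *Cd93* was lost without 72 h replicate 2 or 96 h replicate 3 (-0.97), and that of *Icam2* without 72 h replicates 2 or 3 or 96 h replicates 1 or 3 (-1.07 to -1.29). In 1.0 mM gels *Stab1* was at -1.60 ± 0.19 and *Plvap* at -0.92 ± 0.26.

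*Six3*, a homeobox gene of the anterior neural plate, stood at 8.21, 6.01 and 5.21 CPM at 72 h and 1.75, 0.916 and 0.541 CPM at 96 h and rose (log2 fold change 2.58 ± 0.35, adjusted p = 0.0031). *Myocd*, the coactivator of cardiac and smooth muscle genes, stood at 18.7, 8.51 and 11.6 CPM at 72 h and 7.18, 2.59 and 3.63 CPM at 96 h and rose (log2 fold change 1.53 ± 0.37, adjusted p = 0.022), a call lost without 72 h replicate 3 or 96 h replicates 2 or 3 (1.25 to 1.60). *Myc* stood at 25.8, 20.7 and 20.0 CPM at 72 h and 43.3, 46.3 and 61.1 CPM at 96 h and fell (log2 fold change -1.18 ± 0.14, adjusted p = 0.0023), and *Igf1*, a growth factor gene, at 5.91, 2.10 and 4.09 CPM at 72 h and 13.0, 10.2 and 18.3 CPM at 96 h and fell (log2 fold change -1.77 ± 0.33, adjusted p = 0.008).

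The smallest unadjusted interaction p belonged to *Uncx*, a gene of the posterior somite, at -0.55 ± 0.11 in 1.5 mM gels and -1.51 ± 0.14 in 1.0 mM gels (unadjusted p = 9.80e-05), with an adjusted p of 0.953. Of the 477 genes called in 1.5 mM gels and tested in both, 12 had opposite signs, and their mean was under 100 counts over the 6 libraries. Of the 12, 10 had an unadjusted interaction p below 0.05, as did 4.32% of all genes tested for it. The 12 were picked by their opposite signs, so that count is no test of a difference, and no adjusted p was below 0.953.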
